A study of Mus musculus with 5 samples.

Results

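Cytochrome P450 genes were described in RNA libraries labelled as mouse visceral fat, from curcumin-treated diabetes, untreated diabetes and a control. The members were the genes of the count table whose mouse symbol, matched from the Ensembl identifier, has the form Cyp, family number, subfamily letters and member number, less 1 symbol left out by the selection rule. This gave 93 of 78334 genes, 76 in families 1 to 4 and 17 in families 7 and above. Pseudogenes and P450 genes with symbols of another form were not members.

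P450 enzymes are haem proteins that insert an atom of oxygen into their substrate, with electrons from cytochrome P450 reductase in the endoplasmic reticulum or from ferredoxin in mitochondria. Families 1 to 4 clear drugs and other foreign compounds and oxidise fatty acids and eicosanoids, while the higher families carry out defined steps of sterol, bile acid, steroid hormone, retinoid and vitamin D metabolism. Most are known best from liver. Fat expresses a small number of them, among which enzymes of fatty acids, oestrogens and small lipophilic molecules are the best known.

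Of the 5 libraries, 2 came from curcumin-treated diabetes, 2 from untreated diabetes and 1 from a control, all from male C57BL/6 mice. Per the labels, pups destined for the diabetic groups were injected when 2 days old with 70 mg/kg of streptozotocin, which destroys pancreatic beta cells. They were then fed from 3 weeks of age, for 8 weeks, a diet that drew 60% of its energy from fat. Curcumin, a turmeric polyphenol, was given by gavage at 50 mg/kg daily for 28 days from 11 weeks of age, and the untreated diabetic and control mice received vehicle. The control had standard chow, and the labels do not state whether it received an injection as a pup. Nor do they say whether the paired libraries within a group derive from different animals, so p-values measure the spread between libraries, which may be technical.

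The libraries of a group differed in their tissue makeup, and this touches every result below. Total counts lay between 25378046 and 42422890. Adipocyte markers (14 genes, summed) stood at 3863 and 190 CPM (counts per 1000000 counts of the library) in curcumin-treated 1 and 2, at 143 and 26462 CPM in diabetes 1 and 2, and at 546 CPM in control 1, and diabetes 1 held 3 of the 14 at 0. Epididymal epithelium markers (16 genes) stood at 6018 and 114862 CPM in curcumin-treated 1 and 2, at 75790 and 0.394 CPM in diabetes 1 and 2, where diabetes 2 held 12 of the 16 at 0, and at 78244 CPM in control 1. In curcumin-treated 1, Crisp1 alone gave 165926 of the 167395 epididymal counts, its highest level of any library, and the median of the list was 1.98 CPM. Smooth muscle markers (8 genes) stood at 43521 and 2173 CPM in curcumin-treated 1 and 2, at 1437 and 340 CPM in diabetes 1 and 2, and at 2481 CPM in control 1. Curcumin-treated 2, diabetes 1 and control 1 were thus rich in epididymal RNA, diabetes 2 in adipocyte RNA and curcumin-treated 1 in smooth muscle RNA. Slc2a4 and Cidea departed from the rest of the adipocyte list. They were highest in curcumin-treated 1, at 212 and 11.9 CPM, against 86.3 and 2.60 CPM in diabetes 2. The other adipocyte markers were highest in diabetes 2. The summed macrophage, fibroblast and endothelial markers were also highest in diabetes 2. The fibroblast markers were split. Pi16, Col3a1, Dcn and Lum were highest in diabetes 2, Pdgfra in control 1 and Col1a1 in curcumin-treated 2. Dpp4 was lowest in diabetes 2, at 20.1 CPM, and highest in diabetes 1, at 92.4 CPM. In bulk tissue, fewer cells of a type and less RNA per cell cannot be told apart. Hepatocyte markers (10 genes), which bear on the liver-type P450 genes, summed to 4.67 and 9.62 CPM in curcumin-treated 1 and 2, to 15.6 and 34.7 CPM in diabetes 1 and 2, and to 16.5 CPM in control 1. Fga alone gave 265 of 408 counts in curcumin-treated 2, 297 of 398 in diabetes 1 and 386 of 447 in control 1, where 5 of the 10 markers were at 0 in each, while Alb was highest in diabetes 2.

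Start-site sequences are given for 5 members that the results turn on: Cyp1b1, the member with the most counts in 3 of the libraries; Cyp4v3 and Cyp2e1, which were highest in the adipocyte-rich library; and Cyp46a1 and Cyp26b1, which stood lower in diabetes than in the control. They are RefSeq windows of 300 bases (250 before and 50 after the annotated start) on build GRCm38.p6, 5′ to 3′ on the strand of the gene. Capitals mark matches on either strand to GCGTG (the core of the xenobiotic response element, bound by the aryl hydrocarbon receptor), AGGTCA (the half-site of many nuclear receptors) or TATAAA (the TATA box).
Cyp1b1, chr17:79715012-79715311, minus strand: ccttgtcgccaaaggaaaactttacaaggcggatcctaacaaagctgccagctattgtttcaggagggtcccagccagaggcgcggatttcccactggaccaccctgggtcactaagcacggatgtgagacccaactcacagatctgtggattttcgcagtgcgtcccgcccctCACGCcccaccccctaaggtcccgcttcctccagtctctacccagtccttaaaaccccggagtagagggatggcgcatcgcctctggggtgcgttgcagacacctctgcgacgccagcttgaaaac
Cyp4v3, chr8:45333114-45333413, minus strand: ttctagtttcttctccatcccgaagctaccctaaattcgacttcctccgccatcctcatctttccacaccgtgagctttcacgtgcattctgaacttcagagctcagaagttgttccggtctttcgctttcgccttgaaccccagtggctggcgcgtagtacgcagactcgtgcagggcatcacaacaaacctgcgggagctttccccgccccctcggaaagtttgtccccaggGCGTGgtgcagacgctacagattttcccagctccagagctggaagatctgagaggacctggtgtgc
Cyp46a1, chr12:108334066-108334365, plus strand: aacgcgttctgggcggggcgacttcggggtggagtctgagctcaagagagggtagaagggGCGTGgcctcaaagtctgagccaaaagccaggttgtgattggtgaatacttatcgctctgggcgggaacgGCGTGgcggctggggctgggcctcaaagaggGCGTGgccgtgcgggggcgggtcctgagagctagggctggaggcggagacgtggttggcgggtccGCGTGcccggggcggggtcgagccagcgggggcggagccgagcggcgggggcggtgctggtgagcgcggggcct
Cyp2e1, chr7:140763569-140763868, plus strand: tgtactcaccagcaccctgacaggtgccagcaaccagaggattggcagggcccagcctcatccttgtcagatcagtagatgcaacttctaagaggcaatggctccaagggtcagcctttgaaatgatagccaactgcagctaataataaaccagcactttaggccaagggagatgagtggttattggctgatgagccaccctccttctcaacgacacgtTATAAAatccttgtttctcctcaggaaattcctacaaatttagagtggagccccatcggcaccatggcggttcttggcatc
Cyp26b1, chr6:84593761-84594060, minus strand: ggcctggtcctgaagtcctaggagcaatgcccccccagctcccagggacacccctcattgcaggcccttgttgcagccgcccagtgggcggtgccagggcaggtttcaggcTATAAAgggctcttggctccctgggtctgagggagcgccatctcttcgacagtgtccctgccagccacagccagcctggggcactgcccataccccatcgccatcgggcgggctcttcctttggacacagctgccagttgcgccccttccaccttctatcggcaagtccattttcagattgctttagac
Cyp46a1 held 4 matches to GCGTG, Cyp1b1 and Cyp4v3 1 each, and Cyp2e1 and Cyp26b1 1 match each to TATAAA. Windows were listed for 72 of the 93 members, 80 windows in all. GCGTG was found in 21.3% of them, against 32.4% of all 32851 windows, AGGTCA in 26.3% against 16.3%, and TATAAA in 37.5% against 13.6%. A match describes letters in the window and not a bound site.

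Most P450 genes were nearly silent in these libraries, as were most genes of the table. Of all 78334 genes, 23094 reached 1 CPM and 13125 reached 10 CPM in at least 1 library, both smaller shares than among the members. The sets are unlike, as every member has a protein-coding transcript and the table was not limited to such genes. Of the 93 members, 20 reached 10 CPM in at least 1 library, 19 reached 1 CPM but not 10, 50 had counts but stayed under 1 CPM, and 4 (Cyp3a44, Cyp11b2, Cyp2a22 and Cyp2d34) were at 0 in every library. Just inside and outside the 10 CPM limit lay Cyp2j13 at 10.5 CPM and Cyp46a1 at 7.84 CPM, each in its highest library, control 1. The number of members at 1 CPM or more was 26 in each curcumin-treated library, 28 and 23 in diabetes 1 and 2, and 31 in control 1. The number at 0 was 18 and 46 in curcumin-treated 1 and 2, 56 and 27 in diabetes 1 and 2, and 47 in control 1. A count of 0 allows up to 0.108 and 0.0707 CPM in curcumin-treated 1 and 2, 0.118 CPM in each diabetic library and 0.111 CPM in control 1, for counting error only.

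All members together took 0.0433% and 0.0271% of the counts of curcumin-treated 1 and 2, 0.0262% and 0.0777% of diabetes 1 and 2, and 0.0425% of control 1. The adipocyte-rich diabetes 2 was highest and diabetes 1 lowest, so the diabetic pair spanned the other 3 libraries. Families 1 to 4 took 0.0340% (95% Wilson interval 0.0333% to 0.0347%) and 0.0214% (0.0210% to 0.0219%) of curcumin-treated 1 and 2, 0.0174% (0.0169% to 0.0180%) and 0.0673% (0.0663% to 0.0683%) of diabetes 1 and 2, and 0.0301% (0.0295% to 0.0308%) of control 1. Families 7 and above varied less, at 0.00934% (0.00898% to 0.00970%) and 0.00571% (0.00548% to 0.00594%) of curcumin-treated 1 and 2, 0.00879% (0.00844% to 0.00917%) and 0.0104% (0.0100% to 0.0108%) of diabetes 1 and 2, and 0.0124% (0.0119% to 0.0128%) of control 1. The intervals cover counting error only. Control 1 stood above diabetes 2 in this class when scaled to the library total, but not with TMM factors, where they held 0.0114% and 0.0115%.

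**Figure D1:**
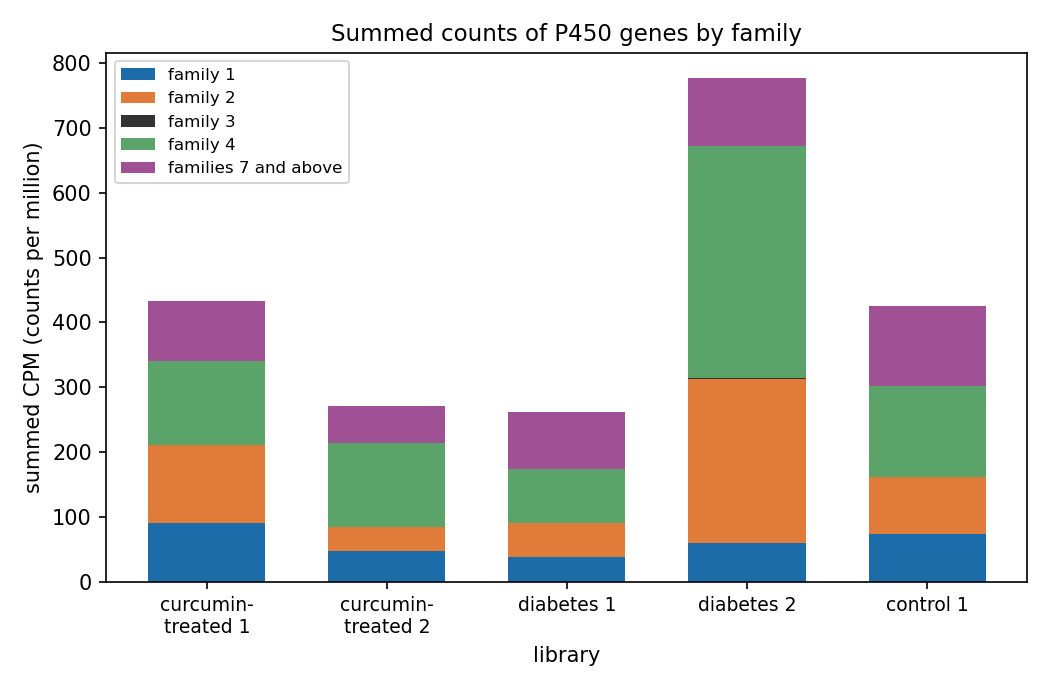
Summed counts of the 93 P450 genes by family in each library (y axis, CPM; bars stacked from 0, 1 bar per library, no error bars as each is a single library). Diabetes 2 stands highest at 777 CPM, mainly through families 2 and 4, and diabetes 1 lowest at 262 CPM.

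The family sums rested on few genes. Family 1 (3 genes) was nearly all Cyp1b1, which held 99.8% and 95.8% of its counts in curcumin-treated 1 and 2, 92.4% and 99.7% in diabetes 1 and 2, and 97.1% in control 1. Family 2 (49 genes) summed to 120 and 37.1 CPM in curcumin-treated 1 and 2, 53.1 and 253 CPM in diabetes 1 and 2, and 88.0 CPM in control 1. Family 4 (17 genes) summed to 129 and 130 CPM in the curcumin-treated libraries, 83.7 and 359 CPM in diabetes 1 and 2, and 140 CPM in control 1. Family 3 (7 genes), the main drug-clearing family of liver, held 13 counts in curcumin-treated 1, 25 in diabetes 2 and 0 in the other 3 libraries.

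Among the genes of foreign compounds, Cyp1b1 (ENSMUSG00000024087), an aryl hydrocarbon receptor target that hydroxylates oestradiol and polycyclic hydrocarbons, was at 90.2 and 44.7 CPM in curcumin-treated 1 and 2, 34.8 and 59.9 CPM in diabetes 1 and 2, and 70.9 CPM in control 1. It was among the members that varied least between libraries. Cyp1a1, the classical target of the same receptor, stayed under 3 CPM, at 0.108 and 1.98 CPM in curcumin-treated 1 and 2, 2.87 and 0.0394 CPM in diabetes 1 and 2, and 1.70 CPM in control 1. It was highest in the 3 epididymis-rich libraries. Cyp1a2, a liver enzyme, reached 0.407 CPM at most.

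Cyp2e1 (ENSMUSG00000025479), which oxidises ethanol, acetone and other small molecules, was at 37.9 and 1.06 CPM in curcumin-treated 1 and 2, 3.93 and 131 CPM in diabetes 1 and 2, and 21.4 CPM in control 1. Both groups of 2 thus spanned a wide range and overlapped. Per kilobase of merged exons Cyp2e1 had the highest level of all members in diabetes 2, at 60.8 CPM per kb, and in curcumin-treated 1, at 17.6 CPM per kb. Cyp2d22, a member of the subfamily that handles many drugs in humans, was at 18.2 and 5.37 CPM in curcumin-treated 1 and 2, 4.87 and 40.9 CPM in diabetes 1 and 2, and 16.6 CPM in control 1. It too was highest in diabetes 2.

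Cyp2b10, the phenobarbital-inducible target of the receptor CAR in mouse liver, had most of its counts in the smooth-muscle-rich library, with 17.3 CPM in curcumin-treated 1 and 0 counts in curcumin-treated 2, 0 counts and 0.906 CPM in diabetes 1 and 2, and 0.407 CPM in control 1. CAR itself (Nr1i3) had at most 0.189 CPM in any library. Cyp2b23 was highest in curcumin-treated 2, at 3.06 CPM, and Cyp2b19 was found only in the 3 epididymis-rich libraries, at up to 1.30 CPM. Further members of family 2 between 1 and 10 CPM in their highest library, beside the fatty acid and vitamin D genes given further on, were Cyp2s1 at 4.26 CPM in diabetes 2, Cyp2t4 at 2.75 CPM in diabetes 1, Cyp2ab1 at 1.77 CPM in diabetes 2, Cyp2d9 at 1.48 CPM in control 1 and Cyp2f2 at 1.22 CPM in control 1.

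Genes of the 2j, 2c and 2u subfamilies oxidise arachidonic acid and related fatty acids. Cyp2j6 was among the steadier members, at 26.4 and 14.7 CPM in curcumin-treated 1 and 2, 22.3 and 33.1 CPM in diabetes 1 and 2, and 20.0 CPM in control 1. Its relative Cyp2j9 was highest in the adipocyte-rich library, at 4.85 and 1.65 CPM in curcumin-treated 1 and 2, 2.44 and 16.7 CPM in diabetes 1 and 2, and 2.52 CPM in control 1. Cyp2j13 was highest in the control and without counts in diabetes 2, at 0.863 and 0.401 CPM in curcumin-treated 1 and 2, 4.28 CPM and 0 counts in diabetes 1 and 2, and 10.5 CPM in control 1. All are genes of chromosome 4 in the GRCm38 annotation, so members of 1 subfamily on 1 chromosome differed in the library where they were highest. Cyp2c23 reached 5.52 CPM and Cyp2c70, the bile acid hydroxylase of mouse liver, 1.97 CPM in diabetes 2. Neither had counts in curcumin-treated 2, diabetes 1 or control 1. Cyp2u1 stayed between 2.59 and 6.50 CPM in all 5 libraries.

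In family 4, whose enzymes hydroxylate fatty acids and leukotrienes near the end of the chain, Cyp4v3 (ENSMUSG00000079057), the mouse counterpart of the human gene of Bietti crystalline dystrophy, was at 19.7 and 6.62 CPM in curcumin-treated 1 and 2, 9.59 and 181 CPM in diabetes 1 and 2, and 7.25 CPM in control 1. Diabetes 2 thus lay 9.18 times above the next library. Cyp4b1 (ENSMUSG00000028713), which acts on short-chain fatty acids and some plant and fungal toxins, was at 8.99 and 2.24 CPM in curcumin-treated 1 and 2, 0 counts and 70.3 CPM in diabetes 1 and 2, and 4.74 CPM in control 1. The order of the libraries for Cyp4b1 was that of the summed adipocyte markers.

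Cyp4f genes oxidise leukotriene B4 and long-chain fatty acids. Cyp4f13 was at 48.5 and 65.1 CPM in curcumin-treated 1 and 2, 30.2 and 38.4 CPM in diabetes 1 and 2, and 60.5 CPM in control 1. Cyp4f16 was at 15.8 and 15.3 CPM in curcumin-treated 1 and 2, 10.02 and 25.7 CPM in diabetes 1 and 2, and 13.8 CPM in control 1, and Cyp4f17 at 24.6 and 11.6 CPM, 13.8 and 23.0 CPM, and 24.8 CPM in the same libraries. Each of these genes stood above 10 CPM in every library.

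Cyp4f15, on the same chromosome, stood apart from them. It was at 0.0719 and 23.9 CPM in curcumin-treated 1 and 2, 14.0 and 0.355 CPM in diabetes 1 and 2, and 23.5 CPM in control 1. The 3 epididymis-rich libraries thus held 357 to 1012 counts of it and the other 2 held 2 and 9. Cyp4f18, which in mice inactivates leukotriene B4 in neutrophils, had another order, at 5.18 and 3.25 CPM in curcumin-treated 1 and 2, 0.589 and 16.2 CPM in diabetes 1 and 2, and 1.11 CPM in control 1. Macrophage markers (8 genes) were at 402 and 281 CPM in curcumin-treated 1 and 2, 131 and 2071 CPM in diabetes 1 and 2, and 186 CPM in control 1. They had the same order of libraries as Cyp4f18, and their part in its values was not tested.

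The PPARα targets of the 4a subfamily, abundant in liver, were low here. Cyp4a14 reached 3.06 CPM in curcumin-treated 1 and had 0 counts in curcumin-treated 2 and diabetes 1, and Cyp4a10, Cyp4a31 and Cyp4a32 stayed under 1 CPM. The remaining members of family 4 between 1 and 10 CPM were Cyp4f39 at up to 1.65 CPM, Cyp4x1 at up to 1.61 CPM and Cyp4f40 at up to 1.48 CPM.

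**Figure D2:**
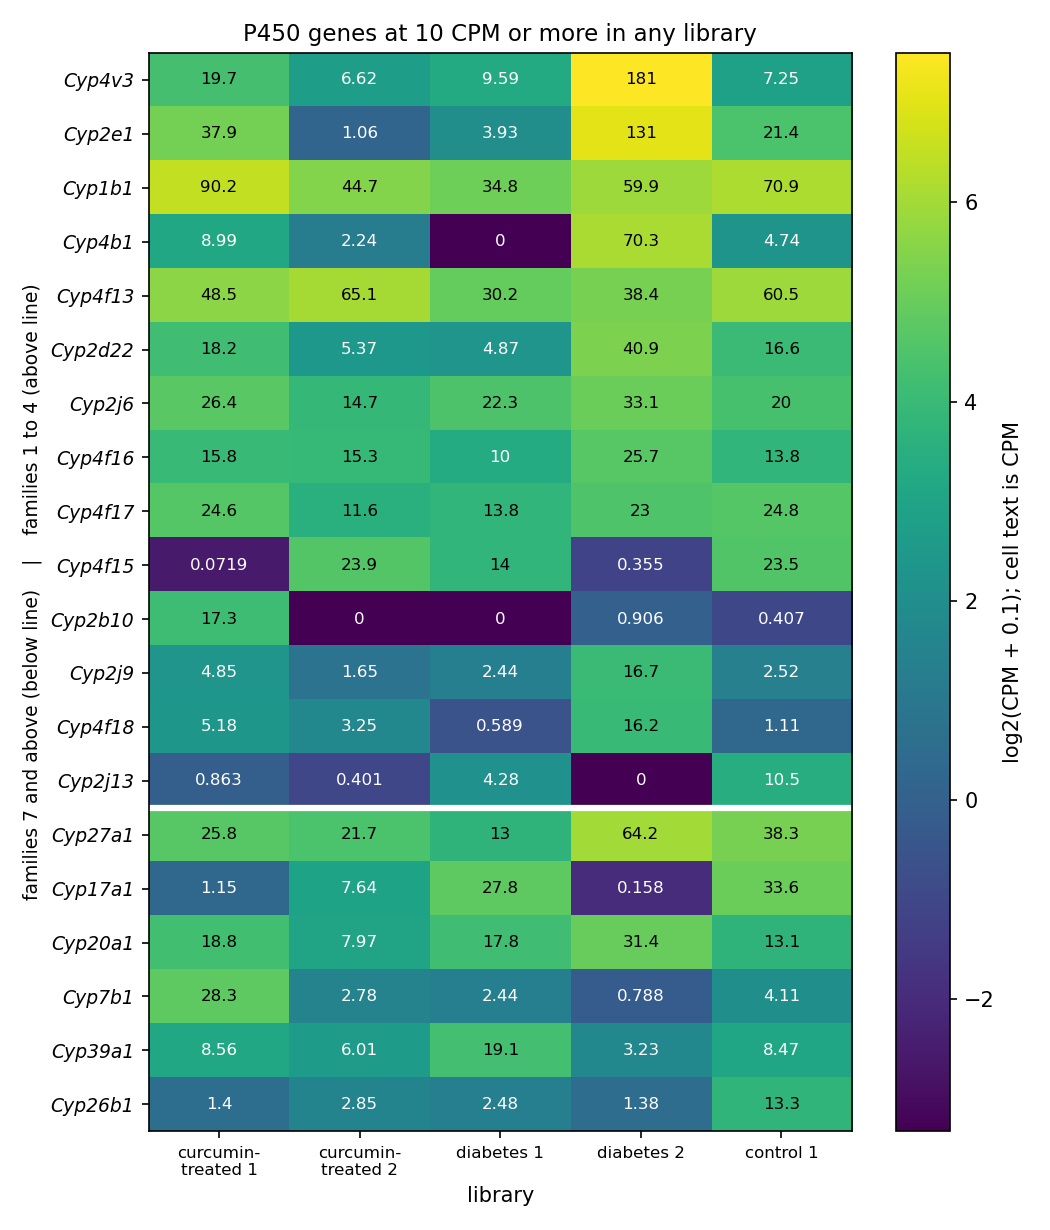
Levels of the 20 P450 genes that reached 10 CPM in at least 1 library (rows; the white line parts families 1 to 4 from families 7 and above) in the 5 libraries (columns). Colour gives log2(CPM + 0.1) and the cell text the CPM of each single library. Diabetes 2 is the highest library for 10 of the 20 genes.

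Genes of sterol metabolism were present in all 5 libraries. Cyp27a1 (ENSMUSG00000026170), the mitochondrial sterol 27-hydroxylase, was at 25.8 and 21.7 CPM in curcumin-treated 1 and 2, 13.0 and 64.2 CPM in diabetes 1 and 2, and 38.3 CPM in control 1. Per kilobase of exon it led all members in control 1, at 17.6 CPM per kb. Cyp7b1 (ENSMUSG00000039519), the oxysterol 7α-hydroxylase, was at 28.3 and 2.78 CPM in curcumin-treated 1 and 2, 2.44 and 0.788 CPM in diabetes 1 and 2, and 4.11 CPM in control 1. Only curcumin-treated 1 was high, and the other 4 libraries lay within 0.788 to 4.11 CPM.

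Cyp39a1, which hydroxylates 24-hydroxycholesterol, was at 8.56 and 6.01 CPM in curcumin-treated 1 and 2, 19.1 and 3.23 CPM in diabetes 1 and 2, and 8.47 CPM in control 1. Cyp46a1 (ENSMUSG00000021259), the cholesterol 24-hydroxylase best known from neurons, was at 6.54 and 4.83 CPM in curcumin-treated 1 and 2, 2.28 and 1.14 CPM in diabetes 1 and 2, and 7.84 CPM in control 1. Here both diabetic libraries lay below the other 3. Cyp20a1, an enzyme of unknown substrate, was at 18.8 and 7.97 CPM in curcumin-treated 1 and 2, 17.8 and 31.4 CPM in diabetes 1 and 2, and 13.1 CPM in control 1. The bile acid enzymes of liver were near 0: Cyp7a1 had 1 count in each of curcumin-treated 1 and diabetes 2, and Cyp8b1 reached 0.749 CPM.

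Of the steroid hormone genes, Cyp17a1 (ENSMUSG00000003555), the 17α-hydroxylase and 17,20-lyase of androgen synthesis, was at 1.15 and 7.64 CPM in curcumin-treated 1 and 2, 27.8 and 0.158 CPM in diabetes 1 and 2, and 33.6 CPM in control 1. It was highest in the 3 epididymis-rich libraries, all above the other 2, and the diabetic pair spanned the curcumin-treated pair. Per kilobase of exon it led all members in diabetes 1, at 10.03 CPM per kb. Cyp11a1, which makes pregnenolone from cholesterol, was at 1.40 and 1.91 CPM in curcumin-treated 1 and 2, 1.02 and 0.709 CPM in diabetes 1 and 2, and 2.92 CPM in control 1. The adrenal enzymes Cyp21a1, Cyp11b1 and Cyp11b2 had at most 7 counts in a library. Of the Leydig cell and adrenal markers (8 genes), Hsd3b1 was at 0 in every library and Star at 5.43 and 5.82 CPM in curcumin-treated 1 and 2, 14.5 and 3.82 CPM in diabetes 1 and 2, and 9.88 CPM in control 1. The list summed to 10.1 and 6.41 CPM in curcumin-treated 1 and 2, 15.0 and 46.7 CPM in diabetes 1 and 2, and 13.6 CPM in control 1, with 1, 3, 6, 3 and 3 of its 8 genes at 0 in these libraries, and its part in the Cyp17a1 values was not tested. In diabetes 2, 1036 of the 1185 counts were those of Mc2r, the corticotropin receptor, while Star was lowest there.

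Among the retinoic acid hydroxylases, Cyp26b1 (ENSMUSG00000063415) was at 1.40 and 2.85 CPM in curcumin-treated 1 and 2, 2.48 and 1.38 CPM in diabetes 1 and 2, and 13.3 CPM in control 1, where it was 4.67 times the next library. Cyp26a1 was at 0.252 and 0.377 CPM in curcumin-treated 1 and 2, 1.85 and 0.158 CPM in diabetes 1 and 2, and 1.18 CPM in control 1, and Cyp26c1 at 0.296 CPM or less. For vitamin D, the 25-hydroxylase Cyp2r1 was at 2.77 and 3.87 CPM in curcumin-treated 1 and 2, 6.68 and 4.89 CPM in diabetes 1 and 2, and 3.52 CPM in control 1. The activating Cyp27b1 stayed at 0.719 CPM or less, and Cyp24a1, which breaks the hormone down, had 3 counts in curcumin-treated 1 and 0 elsewhere.

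The order of libraries repeated across members. Of the 20 genes at 10 CPM or more, 10 (50%) were highest in diabetes 2, against 30.6% of all 13125 genes at that level, and 3 (15%) in curcumin-treated 1, against 25.8%. For 10 of the 20, namely Cyp4v3, Cyp2e1, Cyp4b1, Cyp2d22, Cyp2j6, Cyp20a1, Cyp4f16, Cyp2b10, Cyp2j9 and Cyp4f18, both diabetes 2 and curcumin-treated 1 lay above the 3 epididymis-rich libraries, an order that 27.4% of all such genes had. The reverse order was seen in Cyp17a1, Cyp4f15 and Cyp26b1, 15% of the 20 against 19.8% of all. These are counts of single libraries and carry no test. The part of tissue makeup in them was not tested.

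**Figure D3:**
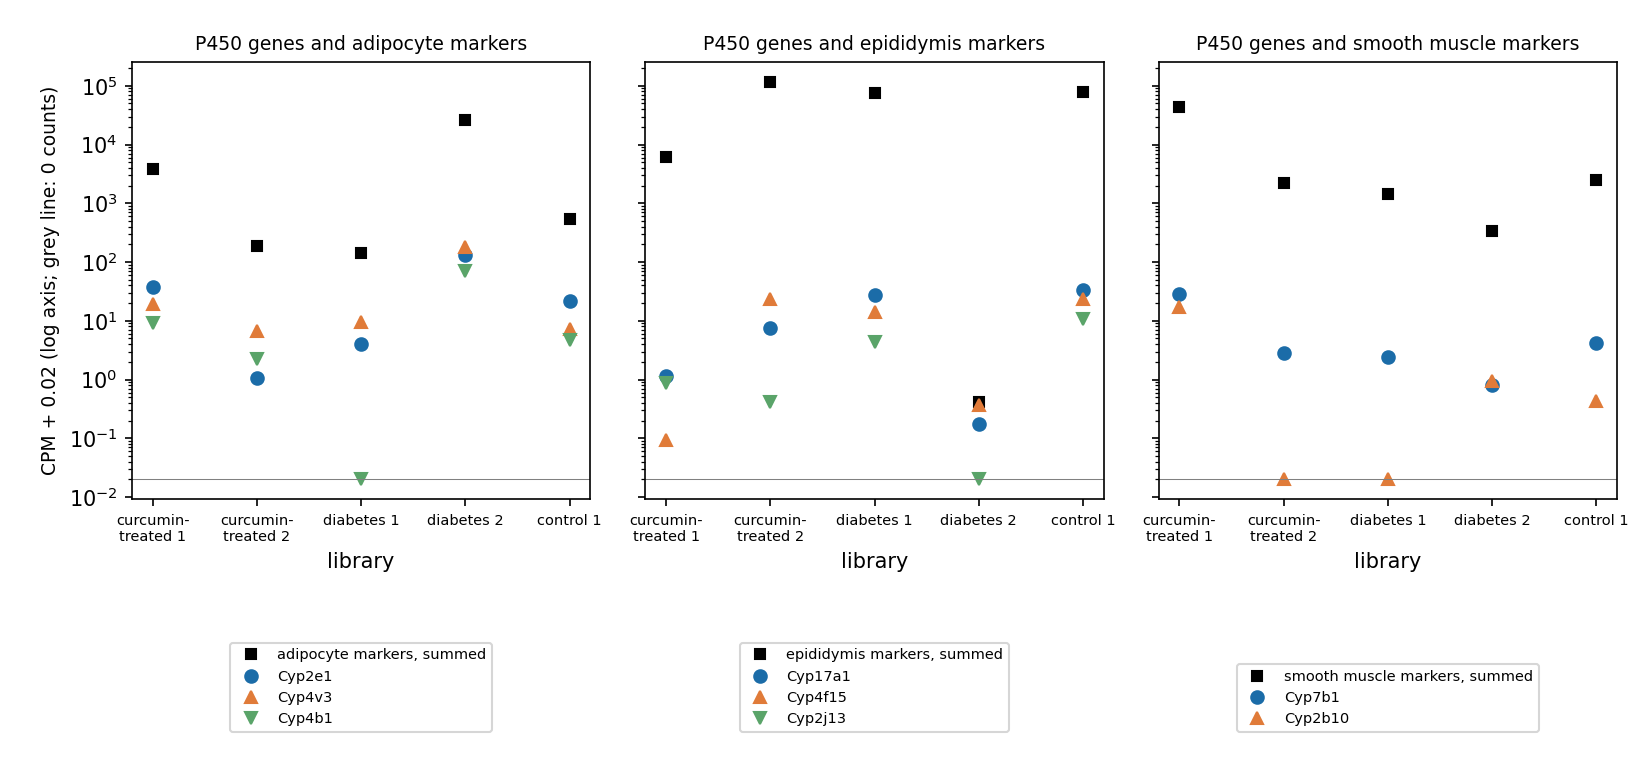
Levels of 8 P450 genes (coloured symbols) beside the summed markers of adipocytes, epididymal epithelium and smooth muscle (black squares) in the 5 libraries (x axis). The y axis is CPM + 0.02 on a log scale, each symbol is 1 library, and the grey line marks 0 counts. The genes of each panel were picked by hand. Diabetes 2 is highest for the summed adipocyte markers and for Cyp2e1, Cyp4v3 and Cyp4b1. It is near or at 0 for the epididymis markers, Cyp17a1, Cyp4f15 and Cyp2j13. In the epididymis-rich curcumin-treated 2, Cyp2j13 stood at 0.401 CPM, below its 0.863 CPM in curcumin-treated 1.

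Few of the better expressed members share exact stretches of sequence with another member, compared by the longest protein-coding transcript. Of the 39 members at 1 CPM or more, 2 had windows of 150 bases, the read length, in common with the transcript of another member. Cyp4f16 shared 2.77% of its windows with Cyp4f37, and Cyp2d9 shared 1.54%, mostly with Cyp2d10. Sharing was greater among the nearly silent Cyp2c genes, up to 29.1% of the windows of Cyp2c40, so their few counts are uncertain. Among all 93 members, 26 shared a window. Pseudogenes and P450 genes with symbols of another form were not compared, and windows with mismatches were not counted. The effect of such sequences on the counts was therefore not tested.

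The partner genes named first are the best expressed of their lists, and other partners were near 0. The list of redox partners (10 genes) holds electron donors and haem-binding proteins. Of the latter, Pgrmc1 was at 1142 and 940 CPM in curcumin-treated 1 and 2, 980 and 132 CPM in diabetes 1 and 2, and 778 CPM in control 1. Cytochrome b5 of the outer mitochondrial membrane, Cyb5b, was at 309 and 259 CPM, 428 and 944 CPM, and 309 CPM in the same libraries. Por, the reductase itself, was highest in diabetes 2 at 243 CPM, against 36.5 to 83.9 CPM in the other 4, but lay outside the naming rule and was chosen after its values were seen. Alas1, the first enzyme of haem synthesis, was at 74.3 and 30.6 CPM in curcumin-treated 1 and 2, 41.7 and 282 CPM in diabetes 1 and 2, and 55.8 CPM in control 1. Both thus had their highest level where the P450 sum was highest. Alad, the next haem enzyme, was lowest there, at 38.5 CPM in diabetes 2.

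Among the regulators (20 genes), Rxra, the common partner of nuclear receptors, was at 94.2 and 50.6 CPM in curcumin-treated 1 and 2, 51.8 and 148 CPM in diabetes 1 and 2, and 41.9 CPM in control 1. Srebf2, which drives cholesterol synthesis, was lowest in diabetes 2, at 42.5 CPM, and between 168 and 234 CPM elsewhere. The aryl hydrocarbon receptor Ahr stayed between 6.46 and 12.6 CPM, and the liver receptors Nr1i2, Nr1i3 and Nr0b2 were under 1 CPM in every library. Other liver receptors of the list reached more. Hnf4a was at up to 4.79 CPM, in diabetes 1, and Ppara and Nr1h4 at up to 3.02 and 1.80 CPM, in curcumin-treated 1. In the list of foreign compound enzymes (16 genes), Gstm1 was at 841 and 339 CPM in curcumin-treated 1 and 2, 323 and 541 CPM in diabetes 1 and 2, and 513 CPM in control 1. Ephx1, the microsomal epoxide hydrolase, was highest in diabetes 2 at 216 CPM, against 41.3 to 96.2 CPM in the other libraries.

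In the sterol and steroid list (19 genes) Hsd17b4, a peroxisomal enzyme of fatty acid and bile acid breakdown, was at 111 and 52.7 CPM in curcumin-treated 1 and 2, 87.9 and 503 CPM in diabetes 1 and 2, and 60.3 CPM in control 1. The steroid 5α-reductase Srd5a2, also chosen after its values were seen, was high in the 3 epididymis-rich libraries, at 5.82 and 105 CPM in curcumin-treated 1 and 2, 185 CPM and 0 counts in diabetes 1 and 2, and 131 CPM in control 1. In the retinoid list (11 genes), Aldh1a1, which makes retinoic acid, was at 229 and 775 CPM in curcumin-treated 1 and 2, 1018 and 254 CPM in diabetes 1 and 2, and 916 CPM in control 1.

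The comparison of curcumin-treated with untreated diabetes asked what the treatment changes, and no P450 gene passed the test. In edgeR's quasi-likelihood test on 29855 genes with Benjamini-Hochberg adjustment, 0 genes (0%) were called, and 2.33% had an unadjusted p under 0.05. Of the 93 members, 51 passed the low-count filter, which a single high library suffices to pass. The 42 others, 4 of them at 0 throughout, stayed at or under 0.355 CPM. Of the 51, 0 were called by edgeR, DESeq2 or limma-voom, and 0, 2 and 0 had an unadjusted p under 0.05 in these tools. Over all genes DESeq2 called 95 and limma-voom 0. Fitted fold changes were negative for 38 and positive for 13 of the 51, where 51.7% of all genes tested were positive. Their median log2 fold change was −0.77, beside 0.05 over all genes tested. Of the 20 members at 10 CPM or more, 10 were highest in the adipocyte-rich diabetes 2, and its part in this lean was not tested. The curcumin-treated and diabetic libraries did not overlap for 7 of the 51 (13.7%), against 27.6% of all genes tested. These were 5 higher, against 17.9% of all genes, and 2 lower, against 9.72%.

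The higher ones that the naming rule admits were the sterol enzymes Cyp7b1 and Cyp46a1 and the fatty acid enzyme Cyp4f13. Cyp7b1 averaged 15.5 ± 18.0 CPM with curcumin and 1.61 ± 1.17 CPM in untreated diabetes (SD, n = 2 each), with a log2 fold change of 3.22 (SE 1.28; edgeR adjusted p = 0.852). Without curcumin-treated 1, where smooth muscle markers were highest, it was 0.93. All 8 smooth muscle markers were higher in both curcumin-treated libraries than in either diabetic one, and their part in the result was not tested. Cyp46a1 averaged 5.69 ± 1.21 CPM with curcumin and 1.71 ± 0.803 CPM in untreated diabetes (SD, n = 2 each), with a log2 fold change of 1.74 (SE 0.82; edgeR adjusted p = 0.852), and its values without 1 library ran from 1.40 to 2.19. Cyp4f13 averaged 56.8 ± 11.7 CPM with curcumin and 34.3 ± 5.80 CPM in untreated diabetes (SD, n = 2 each), with a log2 fold change of 0.72 (SE 0.49; edgeR adjusted p = 0.852), or 0.36 without curcumin-treated 2. Over the alternatives the adjusted p ran from 0.529 to 1 for Cyp7b1 and Cyp46a1 and from 0.633 to 1 for Cyp4f13.

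The lower ones were Cyp2r1 (ENSMUSG00000030670) and Cyp2d9 (ENSMUSG00000068086), both at low levels. Cyp2r1 averaged 3.32 ± 0.776 CPM with curcumin and 5.78 ± 1.27 CPM in untreated diabetes (SD, n = 2 each), and its log2 fold change was −0.77 (SE 0.80; edgeR adjusted p = 0.876). Without curcumin-treated 1 it was −0.47 and without curcumin-treated 2 it was −1.18. Cyp2d9 rested on 6 and 9 counts in the curcumin-treated libraries and on 11 and 6 in the diabetic ones, and its log2 fold change of −0.61 (SE 1.15; edgeR adjusted p = 0.938) was −0.24 without diabetes 1. Cyp4v3, Cyp2e1 and Cyp4b1 overlapped between the groups, since diabetes 2 lay above and diabetes 1 between or below the curcumin-treated libraries.

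The comparison of diabetes with the control asked what the model changes, with a single control library assumed to vary like the others. No gene was called in edgeR (0%), and 1.47% had an unadjusted p under 0.05. Of the members, 0 were called by edgeR, DESeq2 or limma-voom, and 1, 2 and 0 had an unadjusted p under 0.05 in these tools. The 1 in edgeR was Cyp26b1, which no longer passed that level with DESeq2's size factors. Over all genes DESeq2 called 58 and limma-voom 0. Fold changes were positive for 28 and negative for 23, where 52.4% of all genes were positive, with a median log2 fold change of 0.38, beside 0.07 over all genes. Both diabetic libraries lay above the control for 6 members, where 17.3% of all genes did, and below it for 18, where 34.5% of all genes did. In all, 24 of 51 (47.1%) did not overlap, against 51.8% of all genes.

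Cyp26b1, the retinoic acid hydroxylase, averaged 1.93 ± 0.775 CPM in diabetes (SD, n = 2) and was at 13.3 CPM in the control, with a log2 fold change of −2.67 (SE 1.03; edgeR adjusted p = 1). Values without 1 library ran from −3.03 to −2.39. Cyp46a1 averaged 1.71 ± 0.803 CPM in diabetes (SD, n = 2) and was at 7.84 CPM in the control (log2 fold change −2.08, SE 0.94; edgeR adjusted p = 1), and ran from −2.54 to −1.74 without 1 library. Cyp2d9 averaged 0.334 ± 0.138 CPM in diabetes (SD, n = 2) and was at 1.48 CPM in the control, which held 40 counts (log2 fold change −2.01, SE 1.29; edgeR adjusted p = 1). Over the alternatives the adjusted p ran from 0.498 to 1 for Cyp26b1 and Cyp46a1 and from 0.544 to 1 for Cyp2d9.

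On the higher side, Cyp4v3 averaged 95.1 ± 121 CPM in diabetes (SD, n = 2) and was at 7.25 CPM in the control, with a log2 fold change of 3.95 (SE 2.00; edgeR adjusted p = 1). Without diabetes 2, the adipocyte-rich library, it was 0.44. With the replicate number as a block it was 2.53. Cyp20a1 (ENSMUSG00000049439) averaged 24.6 ± 9.65 CPM in diabetes (SD, n = 2) and was at 13.1 CPM in the control (log2 fold change 1.08, SE 0.84; edgeR adjusted p = 1), or 0.48 without diabetes 2. Cyp4f39 (ENSMUSG00000061126), of the leukotriene and fatty acid subfamily, averaged 1.59 ± 0.0867 CPM in diabetes (SD, n = 2) and was at 0.518 CPM in the control (log2 fold change 1.76, SE 1.69; edgeR adjusted p = 1), or 1.17 with the replicate block. The adjusted p over the alternatives ran from 0.498 to 1 for Cyp4v3, from 0.526 to 1 for Cyp20a1 and from 0.659 to 1 for Cyp4f39.

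**Figure D4:**
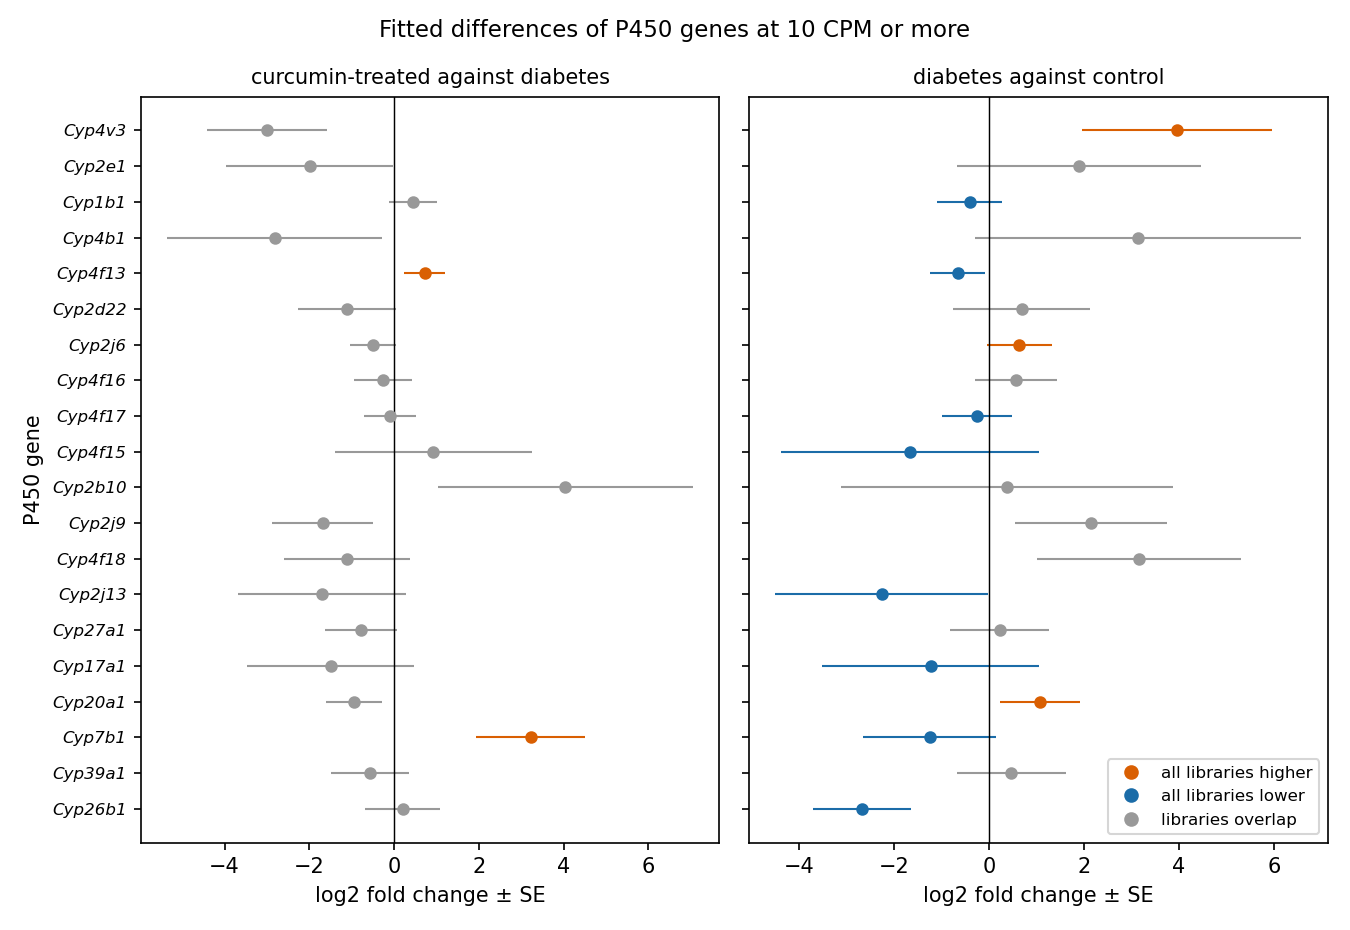
Fitted log2 fold changes (x axis, points) with standard errors (bars) of the 20 P450 genes at 10 CPM or more (rows), for curcumin-treated against untreated diabetes and for diabetes against the control. Orange and blue mark genes whose libraries do not overlap between the groups; Cyp7b1 stands at 3.22 in the first panel and Cyp26b1 at −2.67 in the second, and none passed the test.

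Between curcumin-treated diabetes and the control, 0 genes (0%) and 0 of the 51 members were called in edgeR, 0.375% of all genes had an unadjusted p under 0.05 and 0 of the members did. DESeq2 and limma-voom called 0 members, also with 0 at an unadjusted p under 0.05, and over all genes 77 and 0. The libraries did not overlap for 23 of the 51 members (45.1%), against 58.6% of all genes, with 6 higher and 17 lower, against 24.6% and 34.0% of all genes. Cyp26b1 was again lower in both libraries, at 1.40 and 2.85 CPM against 13.3 CPM in the control. This comparison shares the control with the previous one and the curcumin-treated libraries with the first, so the 3 are not independent.

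The partner lists gave 0 called genes in all 3 comparisons. Over all genes tested, 51.7% of fold changes were positive in the first comparison and 52.4% in the second. For curcumin-treated against untreated diabetes, fold changes were negative for 14 of 18 tested sterol and steroid genes (median log2 fold change −0.62). They were negative for 12 of 16 foreign compound enzymes (−0.91), 7 of 11 retinoid genes (−0.23) and 5 of 10 redox partners (−0.07). The same held for 3 of 8 haem enzymes (0.08) and 8 of 17 regulators (0.08), beside a median of 0.05 over all genes. For diabetes against the control, fold changes were positive for 10 of 18 sterol and steroid genes (0.29) and 11 of 16 foreign compound enzymes (0.60). They were positive for 3 of 11 retinoid genes (−0.51) and 8 of 10 redox partners (0.78). The same held for 4 of 8 haem enzymes (−0.06) and 9 of 17 regulators (0.03), beside 0.07 over all genes.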

How the data were processed

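Per the labels' protocols, the 5 libraries were made by a stranded poly-A method and read as pairs of 150 bases. The authors deposited raw whole-number counts per Ensembl gene. Build GRCm39, FastQC and featureCounts are listed in the submitters' processing notes. Aligner, annotation and strand setting: not given in the sources used here, so reads of antisense neighbours cannot be assigned with certainty. Symbols matched 51486 genes (65.7%), holding 95.3% to 98.5% of each library's counts. Depth ran from 25378046 to 42422890 counts.

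Levels are CPM of the library total. Genes kept by filterByExpr (29855) were scaled by TMM and tested in edgeR 4.0.16, with the 5 libraries fitted jointly (quasi-likelihood, robust, two-sided, Benjamini-Hochberg, threshold 0.05; 2 residual degrees of freedom). The biological coefficient of variation was 1.07. The SE was taken as the absolute log2 fold change divided by the root of the F statistic. Alternatives used DESeq2 1.42.0 and limma 3.58.1, other scalings and filters, a replicate block, removal of other-tissue markers, and libraries left out. The test was also run on simulated counts with very large changes, a run that does not show its power for smaller ones. Exon lengths, transcripts and start-site windows came from GRCm38 (GENCODE M21 and RefSeq), and no coordinates were converted. Protein sequences, planned at the outset, were not used here.

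Levels were given for each member at 10 CPM or more. Fold changes were given, in the first 2 comparisons, for up to 3 members per direction with the smallest p among those not overlapping and at 1 CPM or more, and 4 partner genes per list by mean level were eligible for naming. The members and lists were chosen with earlier results of these data known. The sequences shown were chosen after the values were seen. So were the partner genes named outside that rule (Por, Ahr, Nr1i2, Nr1i3, Nr0b2, Hnf4a, Ppara, Nr1h4, Star and Srd5a2).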

Additional observations from a re-analysis of the deposited data

How the results depend on the processing

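None of the members was called by any of the alternatives run, in any of the 3 comparisons. Over all genes, edgeR called 0 under each of its settings, as did limma-voom, while DESeq2 called 95 genes for curcumin-treated against untreated diabetes, 58 for diabetes against the control and 77 for curcumin-treated diabetes against the control. The cause was not tested. The 125 fold changes recomputed for the named members all kept their sign. These members were named because their libraries do not overlap between the groups, so the kept sign was largely fixed by that choice. The number of members that did not overlap rose when a library was left out, since fewer libraries overlap less: from 15 to 38 of 51 in the first comparison, from 43 to 50 in the second and from 45 to 49 in the third. With TMM-scaled CPM it was 7, 21 and 24.

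With the replicate number as a block (replicate block), edgeR called 0 genes and 0 members in each comparison, and the log2 fold change was 2.68 for Cyp7b1 in the first, and 2.53 for Cyp4v3 and 1.17 for Cyp4f39 in the second. It changed no call. The diabetic and curcumin-treated differences between libraries 1 and 2 correlated at −0.410 over genes. Libraries of the same number also differed in tissue makeup, so this value cannot show whether the numbers pair the samples. A crossed pairing, chosen after seeing the data, called 0 genes and 0 members in the first comparison. Members with few counts are limited by depth, as a count of 0 allows up to 0.118 CPM in the diabetic libraries.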

Other observations

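P450 genes whose symbols have another form were measured in the same libraries. Cyp51, the lanosterol demethylase of cholesterol synthesis, was at 45.5 and 76.7 CPM in curcumin-treated 1 and 2, 99.1 and 53.3 CPM in diabetes 1 and 2, and 76.5 CPM in control 1. It was thus lowest in curcumin-treated 1 and diabetes 2, the 2 libraries with the fewest epididymal counts. Tbxas1, thromboxane synthase, was at 5.90 and 3.02 CPM in curcumin-treated 1 and 2, 0.393 and 59.1 CPM in diabetes 1 and 2, and 2.66 CPM in control 1, the order of the macrophage markers. Ptgis, prostacyclin synthase, was at 30.8 and 19.0 CPM in curcumin-treated 1 and 2, 6.33 and 23.2 CPM in diabetes 1 and 2, and 24.1 CPM in control 1.

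Cyp4a12a, a male-specific fatty acid hydroxylase of mouse kidney and liver, was at 3.31 and 0.118 CPM in curcumin-treated 1 and 2, 2.48 and 0.118 CPM in diabetes 1 and 2, and 9.51 CPM in control 1. Cyp4a30b reached 6.72 CPM in curcumin-treated 1. Of 30 genes with P450 pseudogene names, 1 reached 1 CPM, Cyp4b1-ps1 at 1.93 CPM in diabetes 2, the library where Cyp4b1 was highest too.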
